A study of Mus musculus with 7 samples.

Results

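Pramel6, Pramel7, Zscan4c, Zscan4d and Zscan4f, 5 mouse genes of the early embryo, were measured among the 29267 genes of an RNA-Seq study of reprogramming. They were selected on their levels in these 7 libraries, so every difference given for them here is a description and none was tested. All 5 were found in the tables by their gene symbols, and the 3 Zscan4 genes are also given as a sum because they share reads.

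PRAME family proteins carry leucine-rich repeats and are encoded by large gene families in rodents. Pramel6 and Pramel7 are known from the inner cell mass and from naive embryonic stem cells. There their transcription answers to leukemia inhibitory factor (LIF) and STAT3, and PRAMEL7 leads UHRF1, the partner of the maintenance DNA methyltransferase DNMT1, to degradation through a CUL2 ubiquitin ligase. Zscan4 genes encode a SCAN domain with zinc fingers, mark the 2-cell embryo, and flicker on in a small minority of cells of an embryonic stem cell culture.

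The libraries came from OG2 mouse embryonic fibroblasts (MEFs), which carry egfp under the Oct4 promoter and distal enhancer, and from R1 embryonic stem cells. OG2 MEFs received retroviral Oct4, Sox2, Klf4 and c-Myc and were then kept in a serum-based medium with LIF (mES medium) or in a serum-free medium with N2, bFGF and LIF (5C medium), both with vitamin C. Sorting on the Oct4-driven GFP gave mES-Oct4GFP+ and mES-Oct4GFP- cells from the first medium and 5C-Oct4GFP+ and 5C-Oct4GFP- cells from the second, all labelled with passage 0. 5C-Oct4GFP+ cells moved into naive medium (LIF, CHIR99021 and PD0325901) or into primed medium gave 5C-Oct4GFP+ (naive) and 5C-Oct4GFP+ (primed) cells, labelled with 20 passages, although the study's text also speaks of 3 days in either medium, so how long the sequenced cells were kept is uncertain. The primed medium held bFGF and activin A for induction and CHIR99021 and IWR1 for maintenance. R1 ESCs-primed, also labelled with 20 passages, came from the same kind of conversion of R1 cells, first on MEF feeders. Each of the 7 groups is 1 library, so the intervals below cover counting error only and no difference has a replicate check. Time in culture and medium cannot be told apart in the converted cells, nor can cell line and origin in the R1 library, and GFP marks activity of the Oct4 transgene rather than a cell type.

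The libraries held 6108252 to 11496615 expected counts, and 18229 to 19220 genes had a level above 0. Levels are TPM, a share of all transcripts in which counts are first divided by gene length, so that levels of different genes can be compared within a library. The 6 pluripotency markers Nanog, Zfp42, Utf1, Dppa5a, Tdgf1 and Esrrb summed to 5305 TPM in mES-Oct4GFP+ cells, 7159 TPM in 5C-Oct4GFP+ cells and 5280 TPM in 5C-Oct4GFP+ (naive) cells, against 84.5 to 415 in both Oct4GFP- libraries and 1124 (OG2) and 1272 (R1) in the primed libraries. Dppa5a alone was 3754 TPM of the sum in mES-Oct4GFP+ cells and 4714 TPM in 5C-Oct4GFP+ cells, whereas Utf1 was 42.2 TPM and 1034 TPM there. The 5 fibroblast markers Thy1, Col1a1, Col1a2, Postn and Twist2 summed to 341 TPM in mES-Oct4GFP- cells and 165 TPM in 5C-Oct4GFP- cells, and to 4.96 to 7.77 in the libraries with the high pluripotency sums. In the primed libraries they summed to 46.8 (OG2) and 112 (R1), and the primed markers Fgf5, T and Otx2 to 545 and 648. These primed markers summed to 201 TPM in 5C-Oct4GFP+ cells, of which Otx2 was 189 TPM and T 0.24 TPM. They summed to 7.46 TPM in mES-Oct4GFP+ cells and 15.7 TPM in 5C-Oct4GFP+ (naive) cells, of which T was 6.93 and 14.5 TPM. In the mES and 5C Oct4GFP- cells they summed to 69.1 and 71.2 TPM, of which T was 9.96 and 26.6 TPM. Unlike the sum, T was thus lowest in 5C-Oct4GFP+ cells.

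Pramel6 and Pramel7 are neighbours on chromosome 2 of mm10, the build named in the submitters' processing notes. By GENCODE M21 on the same assembly (GRCm38), Pramel7 (ENSMUSG00000025839) lies on the minus strand at chr2:87489087-87497093 and Pramel6 (ENSMUSG00000025838) on the plus strand at chr2:87506565-87510872. The gene models are 9471 bases apart and point away from each other. Their coding sequences of 1455 (Pramel6) and 1437 (Pramel7) bases were 55.8% identical over 1494 aligned positions. None of the 2117 distinct 75-base stretches of the Pramel6 transcripts, nor of the 2150 of Pramel7, occurred in a transcript of another GENCODE M21 gene. The tables' lengths exceed their effective lengths by a median of 73.4 to 73.5 bases in each library, which is why 75 bases was used. A read of that length that matches Pramel6 exactly cannot also match Pramel7.

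The stretches before RefSeq's start sites of both Pramel genes are shown because both genes were high in the same libraries; sequences are RefSeq's on GRCm38.p6, where all 5 genes were found, read 5′ to 3′ on each gene's strand. Those of Pramel7, without the last 26 bases, which an exon of another Pramel7 transcript covers, are chr2:87492445-87492668 on the minus strand, and those of Pramel6 are chr2:87506315-87506564 on the plus strand. The Pramel7 stretch lies inside the GENCODE M21 model of the gene, in the intron after its first annotated exon. It ends directly before an annotated exon, so it may not be a promoter, and whether it acts as one was not tested.
Pramel7: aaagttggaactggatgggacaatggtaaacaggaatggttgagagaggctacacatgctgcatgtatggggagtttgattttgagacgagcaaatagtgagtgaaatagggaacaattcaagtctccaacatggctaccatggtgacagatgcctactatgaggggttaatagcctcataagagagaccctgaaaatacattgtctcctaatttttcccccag
Pramel6: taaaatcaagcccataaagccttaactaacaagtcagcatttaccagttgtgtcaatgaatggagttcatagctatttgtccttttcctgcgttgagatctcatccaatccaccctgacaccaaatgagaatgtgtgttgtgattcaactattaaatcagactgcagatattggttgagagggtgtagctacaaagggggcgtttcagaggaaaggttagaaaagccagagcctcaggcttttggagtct
Both windows of 250 bases were poor in CpG, with 1 CpG for Pramel7 and 2 for Pramel6 against a median of 6 over 32851 mouse promoter windows, of which 29.0% held 2 or fewer. Their GC content was 43.2% and 42.0%, against a median of 52.4%. Neither held any of 5 motifs searched on both strands, which are the STAT palindrome (TTCNNNGAA, in 7.02% of the 32851 windows), the octamer (ATGCAAAT, 1.60%), the ESRRB element (TCAAGGTCA, 0.387%), a KLF element (GGGTGTGG, 3.20%) and a TATA box (TATAAA, 12.4%). Aligned to each other the windows matched at 126 of 294 positions.

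Pramel6 was high in mES-Oct4GFP+ and 5C-Oct4GFP+ (naive) cells and at 1.04 TPM or less elsewhere. Its level was 100.1 TPM in mES-Oct4GFP+ cells and 102 TPM in 5C-Oct4GFP+ (naive) cells, on 431 and 604 counts. In 5C-Oct4GFP+ cells it was 1.04 TPM on 5 counts and in 5C-Oct4GFP- cells 0.32 TPM on 2 counts. It was listed at 0 in mES-Oct4GFP- cells and in the OG2 and R1 primed libraries, where 3 counts would have been 0.776, 0.544 and 0.889 TPM. Bulk libraries cannot tell fewer expressing cells from less RNA per cell. In the ranking of each library the gene stood at place 1986 of 18229 detected genes in mES-Oct4GFP+ cells, 1884 of 18329 in 5C-Oct4GFP+ (naive) cells and 13734 of 18947 in 5C-Oct4GFP+ cells.

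The high libraries did not differ from each other for Pramel6 beyond counting error, with 5C-Oct4GFP+ (naive) over mES-Oct4GFP+ at 1.02-fold (95% interval 0.902 to 1.16). Against 5C-Oct4GFP+ cells the level was 96.2-fold higher in mES-Oct4GFP+ cells (40.8 to 297) and 98.4-fold higher in 5C-Oct4GFP+ (naive) cells (41.8 to 303). The step between high and low libraries was thus far wider than the counting error. Against a library at 0 the fold is given over the level of 3 counts in that library. It was 129-fold for mES-Oct4GFP+ over mES-Oct4GFP- cells and 188-fold for 5C-Oct4GFP+ (naive) over 5C-Oct4GFP+ (primed) cells. Such a fold leaves out the counting error of the higher library and is not a 95% limit. Among the low libraries, 5C-Oct4GFP+ over 5C-Oct4GFP- cells was 3.25-fold (0.535 to 34.3), so their order is not resolved. The 5C-Oct4GFP+ cells, on 5 counts, were 1.91-fold above the level of 3 counts in 5C-Oct4GFP+ (primed) cells.

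Pramel7 was high in the same pair of libraries at lower levels. It was 30.55 TPM in mES-Oct4GFP+ cells on 144 counts, 16.4 TPM in 5C-Oct4GFP+ (naive) cells on 108 counts and 1.16 TPM in 5C-Oct4GFP+ cells on 8 counts. The other 4 libraries held about 1 count each, with 0.28 TPM in mES-Oct4GFP- cells, 0.40 TPM in 5C-Oct4GFP- cells, 0.26 TPM in 5C-Oct4GFP+ (primed) cells and 0.43 TPM in R1 ESCs-primed cells. Their order is not resolved. The mES-Oct4GFP+ over mES-Oct4GFP- ratio was 109-fold with a wide interval (14.3 to 3215), since it rests on 1 count in the latter.

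Unlike Pramel6, Pramel7 differed between the high libraries, with mES-Oct4GFP+ 1.86-fold above 5C-Oct4GFP+ (naive) cells (95% interval 1.43 to 2.40). Over 5C-Oct4GFP+ cells it was 26.3-fold higher in mES-Oct4GFP+ cells (13.0 to 62.2) and 14.2-fold higher in 5C-Oct4GFP+ (naive) cells (6.96 to 33.8). The ratio of Pramel6 to Pramel7 TPM was 3.28 in mES-Oct4GFP+ cells (2.715 to 3.997) and 6.23 in 5C-Oct4GFP+ (naive) cells (5.07 to 7.71), intervals that do not overlap. In 5C-Oct4GFP+ cells it was 0.897 (0.233 to 3.13), so it cannot be placed well with so few counts. Each TPM also rests on the mix of transcripts that the quantification assigned, since the effective length of Pramel6 ran from 838.5 to 1466.52 bases and that of Pramel7 from 601.52 to 1419.78 bases over the libraries.

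**Figure D1:**
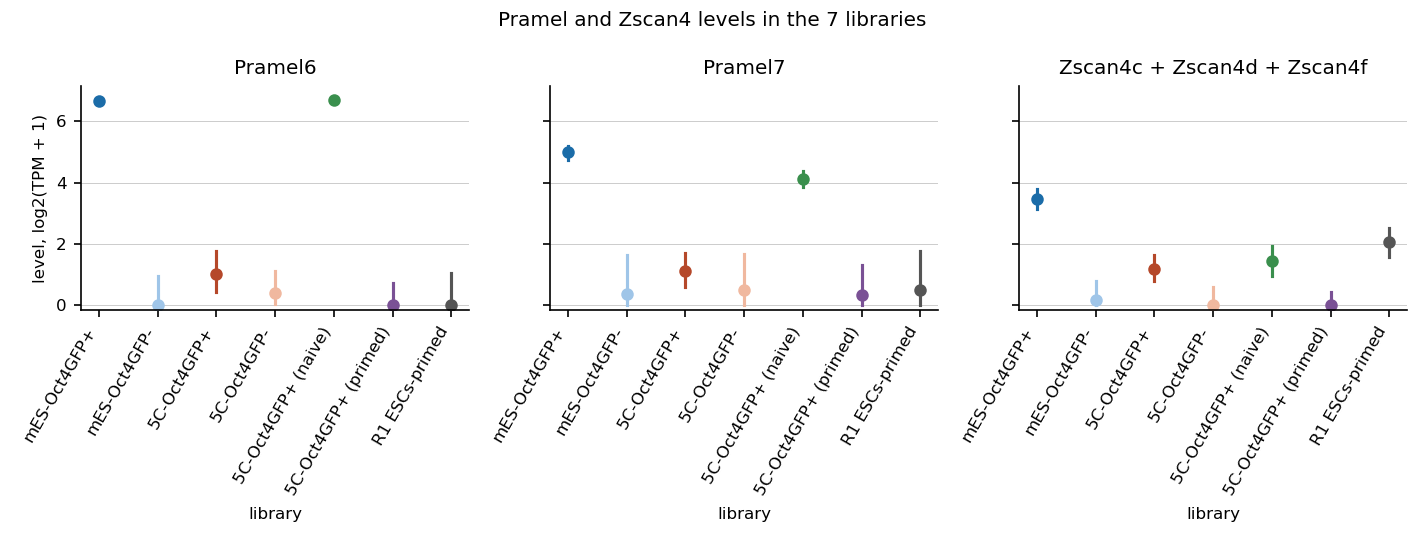
Level as log2(TPM + 1) on the vertical axis for the 7 libraries, each a point with its exact Poisson 95% counting interval as a bar, for Pramel6, Pramel7 and the 3 Zscan4 members summed. Pramel6 and Pramel7 stand high in mES-Oct4GFP+ and 5C-Oct4GFP+ (naive) cells, while the Zscan4 sum is highest in mES-Oct4GFP+ cells. R1 ESCs-primed is next at 3.17 TPM, a place above 5C-Oct4GFP+ (naive) cells that counting error does not resolve.

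The Zscan4 genes are near-identical copies in a cluster on chromosome 7. GENCODE M21 holds 9 Zscan4 genes between chr7:10794242 and chr7:11614112, of which 4 have a row in the tables. These are Zscan4b (ENSMUSG00000095339, chr7:10900740-10905050, minus strand), Zscan4c (ENSMUSG00000054272, chr7:11005745-11010547, plus strand), Zscan4d (ENSMUSG00000090714, chr7:11161374-11166159, minus strand) and Zscan4f (ENSMUSG00000070828, chr7:11397915-11402318, plus strand). The coding sequences of Zscan4c and Zscan4f differed at 6 of 1518 positions, and each differed from Zscan4d at 35. Over the 3 members 38 positions varied, and 27.6% of all 75-base windows of coding sequence held none of them.

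The 75-base window of coding sequence in which the members differ most is shown because a read there meets many positions that tell them apart. Untranslated parts and the other Zscan4 copies were not part of this search. It holds coding bases 1046 to 1120, all in exon 4 of 4, with the 8 variable positions in capitals. It lies at chr7:11009521-11009595 in Zscan4c, chr7:11162322-11162396 in Zscan4d and chr7:11401714-11401788 in Zscan4f, here from GENCODE M21 transcripts and 5′ to 3′ along each gene.
Zscan4c: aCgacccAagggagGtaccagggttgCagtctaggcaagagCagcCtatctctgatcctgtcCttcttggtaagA
Zscan4d: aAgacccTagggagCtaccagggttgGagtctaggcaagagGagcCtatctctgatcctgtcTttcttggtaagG
Zscan4f: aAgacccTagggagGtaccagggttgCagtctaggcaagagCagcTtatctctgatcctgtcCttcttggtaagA

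Sharing of sequence was wide over whole transcripts too. Of the 2202 distinct 75-base stretches of the Zscan4c row, 69.98% also occurred in the Zscan4f row and 34.6% in the Zscan4d row, and 26.4% occurred in no other Zscan4 row. The share found in no other row was 39.1% for Zscan4f, 75.2% for Zscan4d and 64.9% for Zscan4b. Against all other GENCODE M21 genes, copies without a row included, more was shared. This share was 78.6% for Zscan4c, 69.5% for Zscan4f, 30.3% for Zscan4d and 85.95% for Zscan4b. Zscan4e, which has no row, alone held 82.4% of the Zscan4b stretches. The rows also span more copies than their symbols say. Of the 3 transcripts in the Zscan4f row, 1 belongs to Zscan4-ps2 in GENCODE M21. Of the 3 in the Zscan4d row, 1 belongs to Zscan4-ps1 and 1 was not found in that annotation and was left out of the comparison of stretches. The split of the counts between the copies is therefore uncertain, and the sum is the firmer value. The sum does not settle the sharing with copies that have no row.

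**Figure D2:**
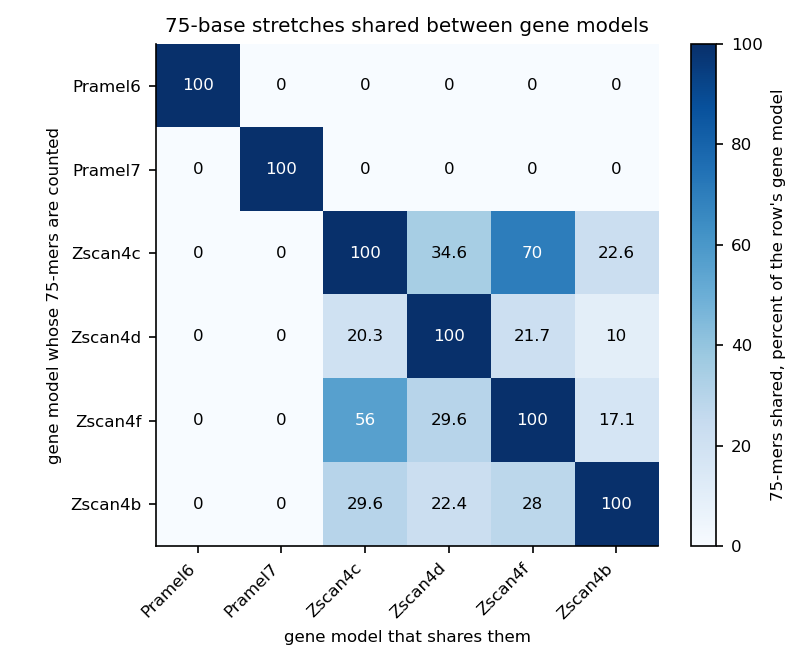
Each cell gives the percentage of the row gene's distinct 75-base transcript stretches that also occur in the column gene, for the rows of the deposited tables. Pramel6 and Pramel7 share none with any of the others, whereas the Zscan4 rows share 10.02% to 69.98% with each other.

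The 250 bases before the Zscan4c start, chr7:11005495-11005744 on the plus strand, are shown as an example, with the TATAAA match in capitals.
Zscan4c: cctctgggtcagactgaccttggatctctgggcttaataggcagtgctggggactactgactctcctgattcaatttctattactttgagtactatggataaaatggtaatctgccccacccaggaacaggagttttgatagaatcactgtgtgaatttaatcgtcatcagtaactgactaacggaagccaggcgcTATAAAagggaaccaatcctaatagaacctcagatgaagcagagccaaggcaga
TATAAA was the only match to the 5 motifs in any Zscan4 window. It lay on the gene's strand 31 to 26 bases before the start in Zscan4f and Zscan4b, 54 to 49 before it in Zscan4c and 65 to 60 before it in Zscan4d. All 4 copies held it, against 12.4% of the 32851 windows, but copies of 1 sequence are not independent cases. The windows of these 4 copies aligned pairwise with 73.6% identity (Zscan4d and Zscan4f) to 94.8% (Zscan4b and Zscan4f).

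The summed Zscan4 members were highest in mES-Oct4GFP+ cells at a modest level. The sum was 10.1 TPM there on 66.9 expected counts and 3.17 TPM in R1 ESCs-primed cells on 22.1. It was 1.75 TPM in 5C-Oct4GFP+ (naive) cells on 15.4 expected counts and 1.28 TPM in 5C-Oct4GFP+ cells on 14.7. It was 0.13 TPM in mES-Oct4GFP- cells on 1 count, and 0 TPM in 5C-Oct4GFP- and 5C-Oct4GFP+ (primed) cells, where 3 counts would have been 0.422 and 0.286 TPM. The pattern thus differed from that of the Pramel genes, with 5C-Oct4GFP+ (naive) cells well under mES-Oct4GFP+ cells. R1 ESCs-primed cells had the next value after mES-Oct4GFP+ cells, but their place above 5C-Oct4GFP+ (naive) cells was not resolved.

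The mES-Oct4GFP+ library stood 3.18-fold above R1 ESCs-primed cells (95% interval 1.96 to 5.45), 5.77-fold above 5C-Oct4GFP+ (naive) cells (3.36 to 11.2) and 7.88-fold above 5C-Oct4GFP+ cells (4.39 to 14.6). These 3 intervals lie above 1. R1 ESCs-primed over 5C-Oct4GFP+ (naive) cells was 1.81-fold (0.918 to 3.84) and 5C-Oct4GFP+ (naive) over 5C-Oct4GFP+ cells 1.37-fold (0.595 to 2.87), so neither pair of neighbours was told apart. R1 ESCs-primed over 5C-Oct4GFP+ cells was 2.48-fold (1.20 to 5.01), but 1.69-fold (0.919 to 3.11) once Zscan4b was added to the sum. Within the sorts, mES-Oct4GFP+ stood 77.6-fold above mES-Oct4GFP- cells (13.5 to 3115) and 5C-Oct4GFP+ 3.03-fold above the level of 3 counts in 5C-Oct4GFP- cells. The 5C-Oct4GFP+ cells were also 4.47-fold above the level of 3 counts in 5C-Oct4GFP+ (primed) cells. The primed libraries differed from each other, R1 ESCs-primed being 11.1-fold above the level of 3 counts in 5C-Oct4GFP+ (primed) cells. Folds over 3 counts leave out the counting error of the higher library. Fibroblast markers were also higher in the R1 than in the OG2 primed library (112 against 46.8 TPM), and their part in this difference was not tested.

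The copies followed the sum, as far as their split can be read. Zscan4f held the largest share of the counts of all 4 copies in each library with over 1 count, 56.5% of 72 in mES-Oct4GFP+ cells, 43.6% of 23 in 5C-Oct4GFP+ cells, 56.6% of 18.0 in 5C-Oct4GFP+ (naive) cells and 56.9% of 25 in R1 ESCs-primed cells. Its levels there were 6.54, 0.88, 1.05 and 2.11 TPM, and the single count in mES-Oct4GFP- cells also went to it. Zscan4c was at 2.66 TPM in mES-Oct4GFP+ cells and at 0.24 to 0.42 TPM in the other 3. Zscan4d ran from 0.16 TPM in 5C-Oct4GFP+ cells to 0.89 TPM in mES-Oct4GFP+ cells, with 0.64 TPM in R1 ESCs-primed cells, and mES-Oct4GFP+ over R1 ESCs-primed was 1.39-fold for it (0.330 to 6.70).

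Zscan4b, which is not 1 of the 5 genes, had a flatter split. It took 35.9% of the counts in 5C-Oct4GFP+ cells and 7.07% in mES-Oct4GFP+ cells, at 0.86 and 0.91 TPM, with 0.33 TPM in 5C-Oct4GFP+ (naive) cells and 0.44 TPM in R1 ESCs-primed cells. With it the sums were 11.0, 2.14, 2.08 and 3.61 TPM in mES-Oct4GFP+, 5C-Oct4GFP+, 5C-Oct4GFP+ (naive) and R1 ESCs-primed cells, and mES-Oct4GFP+ stood 3.05-fold above R1 ESCs-primed cells (1.91 to 5.01).

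**Figure D3:**
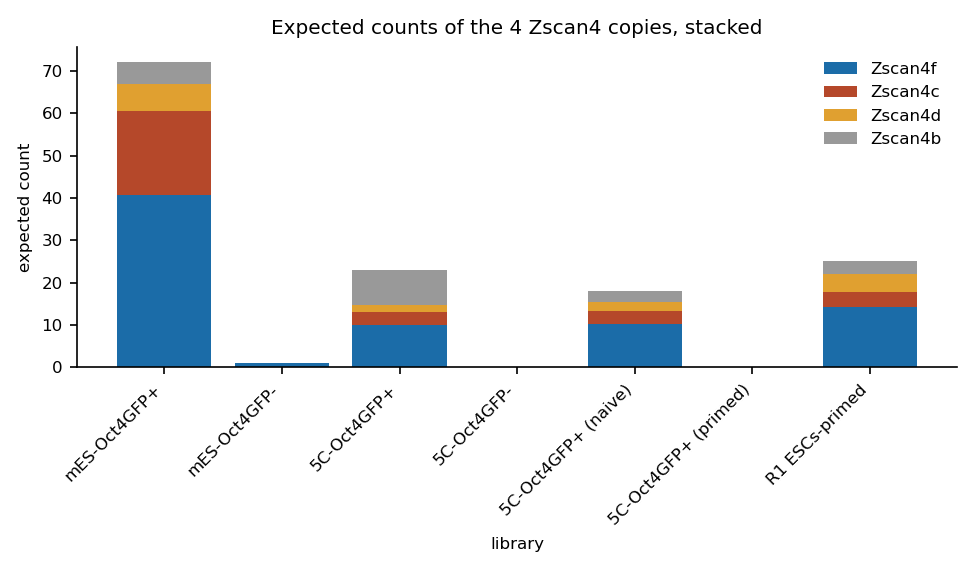
Expected counts of Zscan4f, Zscan4c, Zscan4d and Zscan4b stacked for each of the 7 libraries. The bar of mES-Oct4GFP+ cells reaches 72 counts, those of R1 ESCs-primed, 5C-Oct4GFP+ and 5C-Oct4GFP+ (naive) cells 25, 23 and 18.0, and 5C-Oct4GFP- and 5C-Oct4GFP+ (primed) cells have none.

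The differences of the members are set here beside those of all genes. A gene counted as past the line when it had at least 1 TPM in either library and differed at least 2-fold on the scale log2(TPM + 1), which understates the change of low genes. In mES-Oct4GFP+ against mES-Oct4GFP- cells 4 of the 5 members were past it upward, all but Zscan4d, as were 17.9% of 16294 genes. In 5C-Oct4GFP+ against mES-Oct4GFP+ cells the same 4 were past it downward, as were 13.5% of 15196 genes. In 5C-Oct4GFP+ (naive) against 5C-Oct4GFP+ cells Pramel6 and Pramel7 were past it upward, as were 10.0% of 14863 genes, and no Zscan4 member was. The members were chosen on these levels, so nothing is read from these counts.

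In 5C-Oct4GFP+ (naive) against 5C-Oct4GFP+ (primed) cells Pramel6, Pramel7 and Zscan4f were past the line upward (16.7% of 15249 genes). In 5C-Oct4GFP+ (naive) against mES-Oct4GFP+ cells Zscan4c and Zscan4f were past it downward (6.27% of 14477 genes). In 5C-Oct4GFP+ (primed) cells Pramel6 was past it downward against 5C-Oct4GFP+ cells (16.1% of 15067 genes), though not with FPKM or with counts scaled to the library total, and Zscan4f downward against R1 ESCs-primed cells (5.09% of 14600 genes). No member was past the line in 5C-Oct4GFP+ against 5C-Oct4GFP- cells, where only Pramel6 and Pramel7 had 1 TPM in either library, and no member reached 1 TPM in either Oct4GFP- library. These comparisons share libraries and are not independent.

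**Figure D4:**
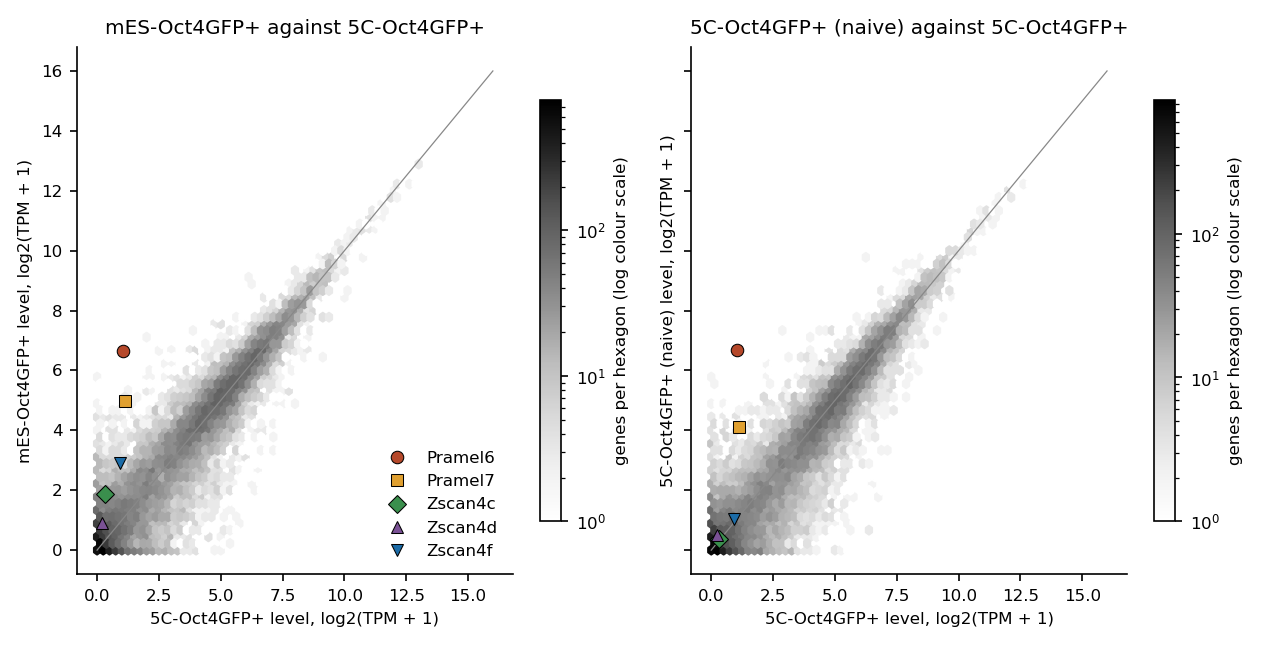
Level of every gene detected in either library as log2(TPM + 1), 5C-Oct4GFP+ cells on the horizontal axis against mES-Oct4GFP+ cells (left) and 5C-Oct4GFP+ (naive) cells (right), as hexagons shaded by the number of genes on a log scale. The line marks equal levels and the coloured symbols are the 5 members. Pramel6 and Pramel7 lie far above the line in both panels, and Zscan4c and Zscan4f are at least 2-fold above it on this scale in the left panel only.

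Of the LIF and STAT3 pathway that acts upstream of Pramel7, 8 genes were looked at. Tfcp2l1, a transcription factor that STAT3 induces, was high in the same pair of libraries as the Pramel genes, at 194 TPM in mES-Oct4GFP+ cells and 153 TPM in 5C-Oct4GFP+ (naive) cells. It was 29.1 TPM in 5C-Oct4GFP+ cells, 10.9 and 8.24 TPM in the mES and 5C Oct4GFP- cells, and 0.54 and 0.82 TPM in the OG2 and R1 primed cells. The difference between mES-Oct4GFP+ and 5C-Oct4GFP+ cells was 6.68-fold (6.31 to 7.08), narrower than the 96.2-fold of Pramel6. Socs3, the feedback inhibitor that STAT3 also induces, had the opposite order among these 3 Oct4GFP+ libraries, with 149 TPM in 5C-Oct4GFP+ cells, 39.6 TPM in mES-Oct4GFP+ cells and 65.7 TPM in 5C-Oct4GFP+ (naive) cells. It was 139 and 111 TPM in the mES and 5C Oct4GFP- cells and 7.54 and 7.13 TPM in the OG2 and R1 primed cells.

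The receptors and the kinase gave no common order. Lifr, the LIF receptor, was 31.6 TPM in 5C-Oct4GFP+ cells against 12.9 TPM in mES-Oct4GFP+ cells and 13.2 TPM in 5C-Oct4GFP+ (naive) cells, and 7.10 to 23.2 TPM in the other 4 libraries. Il6st, its gp130 partner, ran from 13.97 TPM in R1 ESCs-primed to 53.5 TPM in mES-Oct4GFP+ cells, and Jak1 from 18.0 TPM in 5C-Oct4GFP+ (naive) to 70.3 TPM in mES-Oct4GFP- cells. Lifr was highest in 5C-Oct4GFP+ cells. Its levels in 5C-Oct4GFP+ (primed) and R1 ESCs-primed cells, 7.10 and 7.43 TPM, were not told apart (0.956-fold, 0.792 to 1.16). A link of Lifr to the levels of the Pramel genes was not tested. Stat3 itself was 52.5 TPM in 5C-Oct4GFP+ cells, 64.1 TPM in mES-Oct4GFP+ cells and 76.6 TPM in 5C-Oct4GFP+ (naive) cells, and 21.8 to 113 TPM elsewhere. Stat3 thus differed by at most 1.46-fold among these 3 Oct4GFP+ libraries. The transcription factor Gbx2 was 57.8 TPM in 5C-Oct4GFP+ cells, 81.6 TPM in mES-Oct4GFP+ cells and 67.5 TPM in 5C-Oct4GFP+ (naive) cells, and the kinase Pim1 54.6, 89.7 and 88.7 TPM in that order. In 5C-Oct4GFP+ against mES-Oct4GFP+ cells 2 of the 8 genes were at least 2-fold higher and 1 lower, beside 13.7% and 13.5% of all 15196 genes compared, with a median log2 difference of -0.39 beside -0.06 over all genes. In 5C-Oct4GFP+ (primed) against 5C-Oct4GFP+ cells 7 of the 8 were lower, beside 16.1% of 15067 genes, with a median of -2.10 beside 0.06 over all genes.

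Transcripts of 7 genes around UHRF1, DNMT1 and the CUL2 ubiquitin ligase were looked at. Those of the DNA methylation pair varied little among the Oct4GFP+ cells outside the primed medium. Uhrf1 was 292 TPM in mES-Oct4GFP+ cells, 315 TPM in 5C-Oct4GFP+ cells and 357 TPM in 5C-Oct4GFP+ (naive) cells, and 77.6 to 206 TPM in the other 4 libraries. Dnmt1 was 161, 150 and 143 TPM in the same order and 62.2 to 157 TPM elsewhere. These are transcript levels, and protein was not measured here. Cul2, the scaffold of the ligase, was the 1 gene of the 7 that was at least 2-fold different in 5C-Oct4GFP+ against mES-Oct4GFP+ cells, at 88.9 against 207 TPM, 2.33-fold lower (2.16 to 2.52), beside 13.5% of all genes compared that were lower. It was 172 TPM in 5C-Oct4GFP+ (naive) cells and 66.2 to 87.2 TPM in the others. The ligase subunits Elob, Eloc and Rbx1 ran over 581 to 908, 246 to 424 and 86.2 to 130 TPM across the 7 libraries, and Usp7, a deubiquitinase that stabilises UHRF1, over 122 to 307 TPM.

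Zscan4 belongs to a wider programme of 2-cell-like genes, most of which were near 0 here. Of 28 listed genes in the tables, 10 reached 1 TPM in any library. Their summed level was 36.0 TPM in mES-Oct4GFP+ cells, 15.0 TPM in 5C-Oct4GFP+ (naive) cells, 6.79 TPM in 5C-Oct4GFP+ cells and 7.34 TPM in 5C-Oct4GFP- cells, and 2.90 to 4.24 TPM in the other 3 libraries. The sum was thus highest in the library with the highest Zscan4 sum. R1 ESCs-primed, whose second place for Zscan4 was not resolved, was among the 3 low libraries here, at 2.90 TPM. No interval was computed for these list sums, so the order of the low libraries is not resolved.

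Gm5039 was 6.62 TPM in mES-Oct4GFP+ cells, 3.16 TPM in 5C-Oct4GFP+ (naive) cells and 0.94 TPM in 5C-Oct4GFP+ cells and listed at 0 in the other 4 libraries. For it mES-Oct4GFP+ over 5C-Oct4GFP+ cells was 7.04-fold (1.37 to 66.3). The place of 5C-Oct4GFP+ (naive) cells was not resolved, at 3.36-fold over 5C-Oct4GFP+ (0.495 to 31.7) and 0.477-fold over mES-Oct4GFP+ cells (0.113 to 1.53). Gm5662 was 4.85, 2.55 and 0.84 TPM in mES-Oct4GFP+, 5C-Oct4GFP+ (naive) and 5C-Oct4GFP+ cells, with 0.39 TPM in 5C-Oct4GFP- cells and 0 in the other 3. Sp110, a nuclear body gene of the interferon response, was 4.84 TPM in mES-Oct4GFP+ cells but highest in 5C-Oct4GFP- cells. There it was 6.14 of the 7.34 TPM summed over the list. Zfp352, a defining 2-cell gene, was 0.19 TPM in mES-Oct4GFP+ cells and 0.13 TPM in 5C-Oct4GFP+ (naive) cells and 0 in the other 5 libraries.

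The activators of the programme were present in all Oct4GFP+ libraries outside the primed medium. Dppa2 and Dppa4 encode partner proteins that bind 2-cell gene promoters. Between the media Dppa2 differed in the same direction as the Zscan4 sum and Dppa4 in the opposite one. Dppa2 was 133 TPM in mES-Oct4GFP+ cells, 63.2 TPM in 5C-Oct4GFP+ cells and 53.9 TPM in 5C-Oct4GFP+ (naive) cells, with 0.12 and 2.37 TPM in the mES and 5C Oct4GFP- cells and 1.27 and 9.98 in the OG2 and R1 primed cells. Dppa4 was 260 TPM in 5C-Oct4GFP+ cells, 102 TPM in mES-Oct4GFP+ cells and 68.2 TPM in 5C-Oct4GFP+ (naive) cells, with 0.17, 3.09, 0.54 and 13.4 TPM in the other 4 in the same order. So Dppa4 of 5C-Oct4GFP+ cells was 2.54-fold that of mES-Oct4GFP+ cells (2.30 to 2.80), where the Zscan4 sum was 7.88-fold lower. Between the primed libraries both were higher in R1, where the Zscan4 sum also was. Tbx3, a T-box factor that raises Zscan4 in stem cells, was 74.6 TPM in mES-Oct4GFP+ cells, 48.0 TPM in 5C-Oct4GFP+ cells and 94.4 TPM in 5C-Oct4GFP+ (naive) cells, 6.43 and 4.89 TPM in the mES and 5C Oct4GFP- cells, and 0.70 and 1.53 TPM in the OG2 and R1 primed cells.

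Of the 12 repressors of the programme, chromatin factors for the most part, 1 was at least 2-fold higher and none lower in 5C-Oct4GFP+ against mES-Oct4GFP+ cells, beside 13.7% and 13.5% of 15196 genes, with a median log2 difference of 0.02. The 1 was Lin28a, an RNA-binding protein of primed cells, at 109 against 24.2 TPM, 4.49-fold higher (3.96 to 5.11). It was 41.4 TPM in 5C-Oct4GFP+ (naive) cells, 299 TPM in 5C-Oct4GFP+ (primed) cells and 321 TPM in R1 ESCs-primed cells and 75.9 and 62.3 TPM in the mES and 5C Oct4GFP- cells. Trim28, the KRAB corepressor, was 1749 TPM in mES-Oct4GFP+ cells, 1865 TPM in 5C-Oct4GFP+ cells and 2041 TPM in 5C-Oct4GFP+ (naive) cells and 463 to 1388 TPM in the others. Rif1, a telomere-associated protein known to repress Zscan4, was 177, 160 and 147 TPM in the same order and 31.2 to 84.6 TPM in the others.

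**Figure D5:**
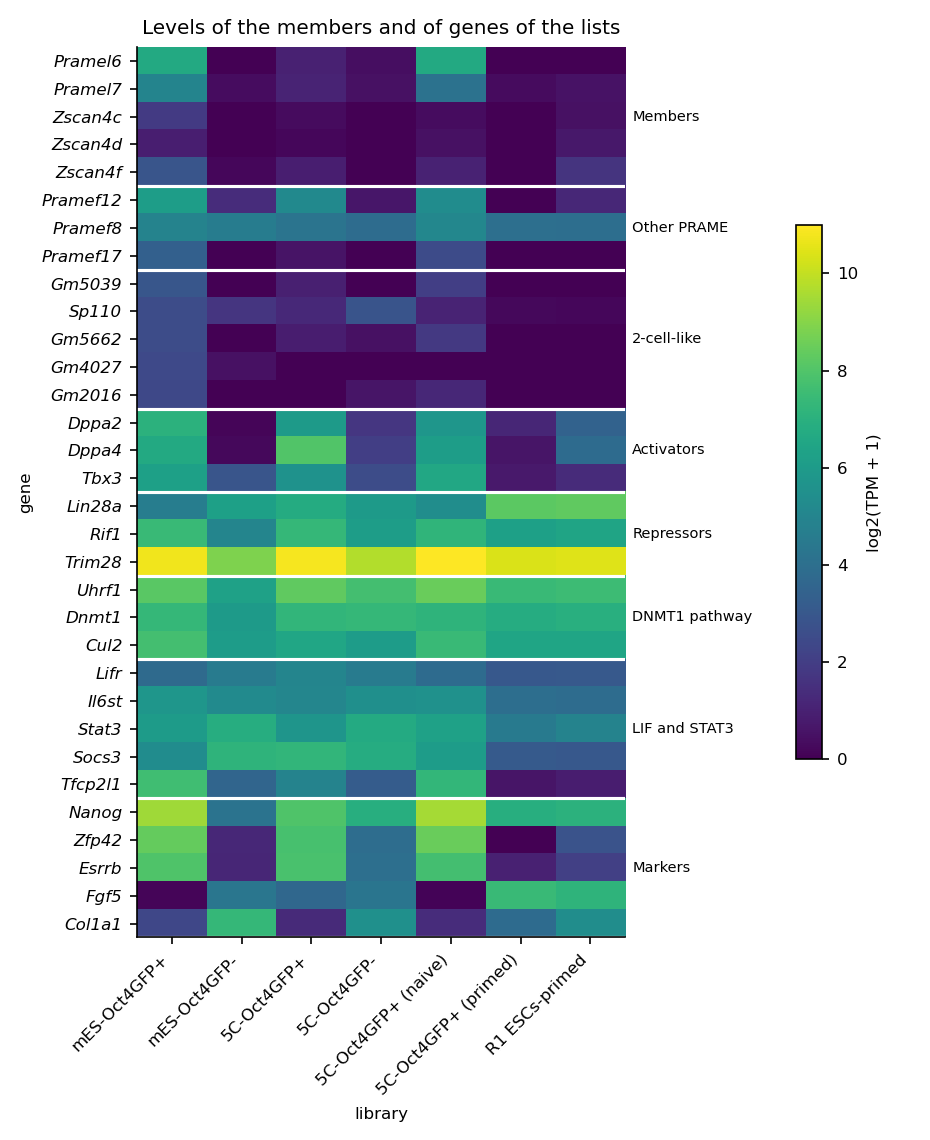
Level as log2(TPM + 1), by colour, of the 5 members and of named genes of the other lists (rows) in the 7 libraries (columns). Tfcp2l1 is bright where Pramel6 is, whereas Dppa4 is brightest in 5C-Oct4GFP+ cells, at 260 TPM, and Trim28 and Dnmt1 change little across the Oct4GFP+ libraries outside the primed medium.

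Other PRAME genes differed in where they were high. Of 12 further genes of the family 6 reached 1 TPM in any library. Pramef12 was 68.9 TPM in mES-Oct4GFP+ cells, 36.6 TPM in 5C-Oct4GFP+ cells and 39.2 TPM in 5C-Oct4GFP+ (naive) cells, and at most 1.61 TPM in the other 4. Unlike Pramel6 it was 1.88-fold (1.65 to 2.14) and not 96.2-fold higher in mES-Oct4GFP+ than in 5C-Oct4GFP+ cells, and the intervals do not overlap. Pramef17 was 9.47, 0.49 and 4.74 TPM in that order and 0 in the other 4. Pramef8 was spread over all libraries at 13.7 to 32.8 TPM.

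Over all 13492 genes with at least 5 TPM in any library, the genes whose log2(TPM + 1) followed the mean of Pramel6 and Pramel7 most closely were Obox6, Vmn1r47, Trpm1, Arhgef38 and Akr1cl, with Pearson's r of 0.998 to 0.999 over the 7 libraries. Obox6, an oocyte-type homeobox gene, was 53.9 TPM in mES-Oct4GFP+ cells, 41.0 TPM in 5C-Oct4GFP+ (naive) cells and 0.83 TPM in 5C-Oct4GFP+ cells, and at most 0.20 TPM in the other 4. Trpm1, a cation channel gene, was 137, 141 and 2.94 TPM in that order and 0.50 to 0.83 TPM in the others. Each r rests on the step between 2 high and 5 low libraries. Pramel6 and Pramel7 had an r of 0.991 with each other.

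For the Zscan4 sum the closest were Hus1, Eya3, Ppp6c, Mafa and Ccl25, with r of 0.938 to 0.961. Only Mafa and Ccl25 of these 5 ranged over more than 3-fold. Mafa, a transcription factor of beta cells, was 11.9 TPM in mES-Oct4GFP+ cells, 2.31 TPM in 5C-Oct4GFP+ (naive) cells, 2.32 TPM in R1 ESCs-primed cells and 1.39 TPM in 5C-Oct4GFP+ cells, and 0.23 to 1.11 TPM in the other 3.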

How the data were processed

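RNA was taken in Trizol, and libraries were made with the TruSeq kit and sequenced on a MiSeq. Per the submitters' processing notes the authors used Bowtie, RSEM and the mm10 build; versions are not given in the sources used here. The deposited RSEM tables hold the authors' expected counts (estimated counts, split between genes that share reads), TPM and FPKM per gene, 1 library per group. All 29267 genes were kept, 28756 IDs matched a symbol, and 0 columns of per-sample values were left unused. The 7 libraries were set side by side in 9 comparisons without replicates, hence without p-values. Differences are of log2(TPM + 1), for genes of at least 1 TPM in either library. Counts were rounded for exact Poisson intervals and for exact Clopper-Pearson intervals of ratios (95%), which treat reads as independent molecules. The floor was 3 counts per library. At 6108252 to 11496615 counts, a read was worth 0.0795 to 0.152 TPM at the median gene length.

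The members and gene lists were chosen with earlier results of these data known. Named were the 5 members and every annotated Zscan4 copy in full, all genes of lists of up to 8, of longer lists the 3 with the widest range plus Dppa2, Dppa4, Tbx3, Rif1 and Trim28, the 3 highest further PRAME genes, and the 5 genes most like each pattern. Zfp352, Pramel1, Pramel3 and the sums of whole lists were added after their values were seen. Alternatives were a pseudocount of 0.1, a minimum of 5 TPM, no filter, FPKM, median-ratio rescaling, the sum of all Zscan4 copies and, chosen after the data were seen, expected counts scaled to the library total (CPM). Python 3.11.15, pandas 2.3.3, scipy 1.17.1 and Biopython 1.88 were used, and the fold and count step was checked on simulated data. That check used genes at higher levels than any Zscan4 member and did not cover low counts or shared reads. Transcript sequences were from GENCODE M21 (GRCm38), promoters from RefSeq. Naive R1 and MEF libraries were not analysed here.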

Additional observations from a re-analysis of the deposited data

Results flagged for a closer look

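For 2 genes of the lists the difference between 5C and mES medium had opposite signs in the sorted fractions. For Sp110 the log2 difference was -1.27 in Oct4GFP+ and 1.15 in Oct4GFP- cells. For Dppa2 it was -1.06 in Oct4GFP+ and 1.59 in Oct4GFP- cells, on levels of 2.37 and 0.12 TPM in the latter. Each value is from 1 library against 1 library, and the difference between the fractions was not tested.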

How the results depend on the processing

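No paired analysis was possible because each group has 1 library and no test was made. No difference of a member changed its sign under any alternative where it was at least 2-fold. Counts of members past the 2-fold line moved as follows. With a pseudocount of 0.1, 2 members were higher in 5C-Oct4GFP+ than in 5C-Oct4GFP- cells (0 as reported) and 2 lower in 5C-Oct4GFP+ (primed) than in 5C-Oct4GFP+ cells (1 as reported). The latter count was 0 with FPKM, 0 with CPM from expected counts and 0 with a minimum of 5 TPM. That minimum also left 1 member lower in 5C-Oct4GFP+ (naive) than in mES-Oct4GFP+ cells (2 as reported) and 0 lower in 5C-Oct4GFP+ (primed) than in R1 ESCs-primed cells (1 as reported), since it leaves fewer genes. Of the 54 single differences, 42 moved beyond their counting interval with the pseudocount of 0.1, 12 with median-ratio rescaling, 12 with that CPM and 2 with FPKM. The interval was taken with a pseudocount of 1. The change of scale alone thus moves differences of low counts, and nothing is read from the 42. Adding Zscan4b moved 4 of 9 differences of the Zscan4 sum. Pramel6 and Pramel7 held at most 8 counts in 5 of the 7 libraries, so depth limits their order there.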
